A study of Mus musculus with 13 samples.

Results

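Type II alveolar cells cover a small part of the alveolar surface and make pulmonary surfactant, the film of phospholipid and protein that keeps alveoli open at low volume. Its lipids and the hydrophobic proteins SP-B and SP-C are packed in lamellar bodies, lysosome-related organelles that fuse with the cell surface, while the collectins SP-A and SP-D bind microbes and lipid in the airspace. NKX2-1 is the homeodomain factor that type II cells need for these genes. The genes followed here are 10 of the 20270 listed by symbol: Sftpa1, Sftpb, Sftpc and Sftpd for the surfactant proteins, Napsa for a protease that processes SP-B and SP-C, Lamp3 and Abca3 for membrane proteins of the lamellar body, Lpcat1 for an enzyme of surfactant phospholipid remodelling, Slc34a2 for the sodium phosphate transporter of the apical membrane, and Nkx2-1. They were taken by name, and all 10 passed the filter on low counts.

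The 13 libraries fall into 4 of control lungs, which were wildtype (WT) and, per the study's methods, had received saline as vehicle, 5 of WT lungs after bleomycin, and 4 of lungs that lack the cannabinoid receptor gene Cnr1 in all tissues (CB1R KO), also after bleomycin. The WT bleomycin and CB1R KO mice were taken 14 days after a single oropharyngeal dose of bleomycin, a drug that injures the alveolar epithelium and leads to fibrosis, at 1 U per kg. The WT mice of both groups were described as male C57BL/6J of 13 weeks and the CB1R KO mice as being on the same background, with no age given. No CB1R KO lung without bleomycin was analysed here, so CB1R KO against control joins genotype and bleomycin. In CB1R KO against WT, a difference already present without bleomycin cannot be told from one in the response to it. Replicates are named by the numbers in their labels. WT bleomycin replicates 4 and 4-B2 share a number and the meaning of B2 is not given, so they could come from 1 mouse, in which case the WT bleomycin group would hold fewer than 5 animals. Each was left out in turn: of the 7 calls in WT bleomycin against control, all were kept without replicate 4 and that of Nkx2-1 was lost without 4-B2, while in CB1R KO against WT the 3 calls were kept without replicate 4 and lost without 4-B2. Cnr1 was counted in every CB1R KO library at 2.47 to 5.63 CPM, counts scaled to the library total,, against 3.46 to 6.97 CPM in WT bleomycin libraries, with a log2 fold change of -0.53 ± 0.28 (SE) that did not pass the test (edgeR adjusted p = 0.367). The deleted part of the gene is not known from these files, so this does not check the genotype, and directions rest on the labels. Of the 13 libraries, 12 held 14615904 to 16662580 estimated counts and CB1R KO replicate 11 held 53463884. The samples were whole lung tissue, so fewer type II cells and less RNA per cell cannot be told apart.

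The sequences upstream of 4 genes are printed so that some of the genes that fell after bleomycin in WT lungs (Sftpa1, Sftpb and Lamp3) can be set beside Lpcat1, which did not pass the test. Slc34a2 and Nkx2-1 also fell and are not printed. RefSeq promoter entries matched 7 of the 10 genes, and Sftpc, Sftpd and Napsa had none. Each line holds the 250 bases before the start site, on the strand of the gene, in build GRCm38.p6, which is older than the GRCm39 reference of the deposited values. Sftpa1 is at chr14:41131538-41131787 (plus strand), Sftpb at chr6:72304360-72304609 (plus), Lamp3 at chr16:19706366-19706615 (minus) and Lpcat1 at chr13:73466981-73467230 (plus). Capitals mark matches, on either strand, to GCNCTNNAG and CAAGTG, forms bound by NKX2-1 and its relatives, and to GTAAACA and GCAAACA, forms bound by forkhead factors.
Sftpa1: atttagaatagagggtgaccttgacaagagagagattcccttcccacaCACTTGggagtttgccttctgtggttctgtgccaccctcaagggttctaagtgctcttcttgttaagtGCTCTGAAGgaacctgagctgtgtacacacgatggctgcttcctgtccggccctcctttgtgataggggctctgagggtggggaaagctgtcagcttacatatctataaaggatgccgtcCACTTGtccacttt
Sftpb: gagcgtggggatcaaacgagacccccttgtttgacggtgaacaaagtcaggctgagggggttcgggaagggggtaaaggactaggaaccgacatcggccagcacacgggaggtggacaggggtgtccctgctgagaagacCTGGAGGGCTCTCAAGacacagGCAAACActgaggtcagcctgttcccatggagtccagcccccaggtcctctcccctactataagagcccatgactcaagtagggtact
Lamp3: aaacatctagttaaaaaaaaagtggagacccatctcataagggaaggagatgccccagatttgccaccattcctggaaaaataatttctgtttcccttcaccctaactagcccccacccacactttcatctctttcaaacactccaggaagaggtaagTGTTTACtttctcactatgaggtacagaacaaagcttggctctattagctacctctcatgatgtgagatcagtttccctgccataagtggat
Lpcat1: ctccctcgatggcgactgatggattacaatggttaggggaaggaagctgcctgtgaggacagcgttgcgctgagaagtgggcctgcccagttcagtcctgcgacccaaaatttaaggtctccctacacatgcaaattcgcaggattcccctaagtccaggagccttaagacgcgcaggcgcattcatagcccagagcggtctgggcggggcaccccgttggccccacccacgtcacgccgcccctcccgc
The Sftpa1 window held GCNCTNNAG 134 bases before the start and CAAGTG, on the opposite strand, at 202 and 14 bases. The Sftpb window held GCNCTNNAG at 110 and 103 bases, on opposite strands and overlapping, with GCAAACA at 88 bases. The Lamp3 window held GTAAACA at 92 bases, and the Lpcat1 window held none of the 4 forms. None was found for Abca3, which did not pass the test, or for Slc34a2, which fell by more than Sftpb or Lamp3 in WT lungs. With entries for only 7 genes, and none for Sftpd, the 1 gene that rose, whether these forms go with the falls was not tested. Nkx2-1 itself had 1 match to GCNCTNNAG. Among all 32851 promoters, 14.2% held GCNCTNNAG, 11.6% CAAGTG, 3.17% GTAAACA and 4.3% GCAAACA. The forms were chosen after the sequences had been seen, and a match is a description of letters.

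The surfactant genes were among the most abundant messages of these lungs. On the TPM scale, which corrects for transcript length, Sftpc ranked 2 of all genes in 13 of 13 libraries, behind only the club cell secretoglobin Scgb1a1. The mean Sftpc level was 27907 ± 1893 TPM (SD, n = 4) in controls, 16027 ± 1463 (n = 5) in WT bleomycin and 25696 ± 4958 (n = 4) in CB1R KO bleomycin lungs. The 10 genes together held 3.90 to 4.51% of all TPM in controls, 2.44 to 2.84% in WT bleomycin and 2.98 to 4.64% in CB1R KO bleomycin libraries. WT bleomycin libraries lay below both other groups without overlap.

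The order of levels was much the same in every group. Sftpc was followed by Sftpb and then Sftpa1 in all 13 libraries, with mean levels of 3731 ± 353 and 2876 ± 306 TPM in controls (SD, n = 4). In CB1R KO lungs the ranges of Sftpb, 3294 ± 503 TPM, and Sftpa1, 2496 ± 701 TPM (SD, n = 4), overlapped. Sftpd and Slc34a2 came next and overlapped in controls, at 698 ± 81.7 and 678 ± 42.4 TPM. In WT bleomycin lungs Sftpd stood clear of Slc34a2, at 884 ± 49.6 against 424 ± 62.1 TPM (SD, n = 5), and in CB1R KO lungs at 1173 ± 130 against 597 ± 100 TPM (SD, n = 4). Napsa was always the sixth of the 10. Lamp3, Lpcat1, Nkx2-1 and Abca3 closed the order, with control means from 126 ± 21.2 TPM for Abca3 to 213 ± 14.4 for Lamp3, and neighbours among them mostly overlapped.

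**Figure D1:**
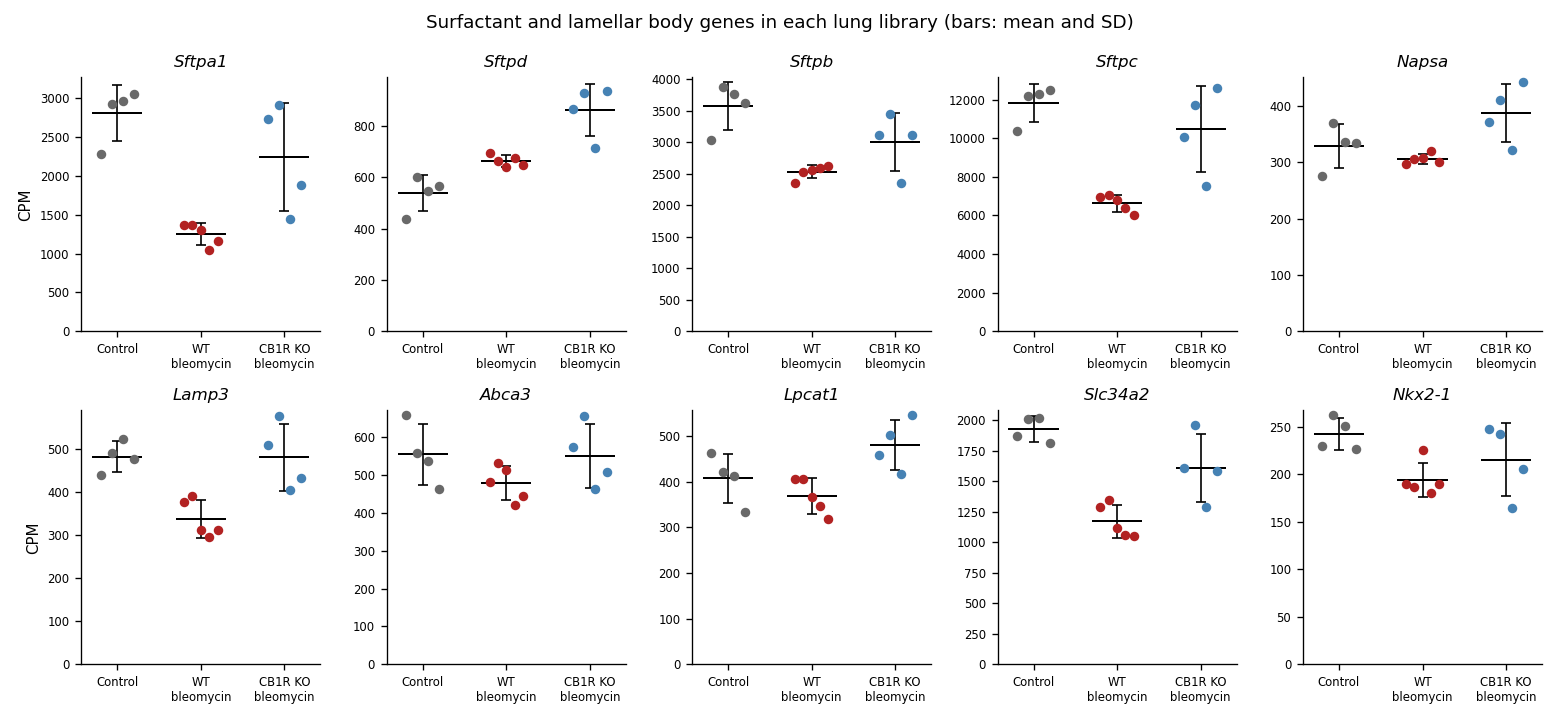
CPM of the 10 genes (vertical axes from 0) in each library of the control, WT bleomycin and CB1R KO bleomycin groups; each point is 1 library, and bars give the mean and SD. The 5 WT bleomycin libraries lie below all controls for Sftpa1, Sftpb, Sftpc, Lamp3, Slc34a2 and Nkx2-1 and above them for Sftpd.

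The first comparison asked how bleomycin changed these genes in WT lungs. Of the 10, 6 fell (Sftpa1, Sftpc, Slc34a2, Lamp3, Sftpb and Nkx2-1), 1 rose (Sftpd), and Abca3, Lpcat1 and Napsa did not pass the test at an adjusted p of 0.05. Over all 15315 genes tested, 23.9% were called lower and 25% higher, a large share of the transcriptome. The WT bleomycin and control libraries did not overlap for 6 of the 10 in the lower and 1 in the higher direction, against 18.8% and 21.5% of all genes. The median log2 fold change of the 10 was -0.41, against -0.01 over all genes.

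Among the collectins, Sftpa1 and Sftpd went in opposite directions. Sftpa1 measured 2275, 2927, 2960 and 3052 CPM in the controls and 1372, 1367, 1303, 1050 and 1165 CPM in the WT bleomycin lungs. The groups did not overlap, and the highest treated lung was well under the lowest control. The log2 fold change was -1.16 ± 0.17 (SE, edgeR adjusted p = 7.16e-05), a fall to 0.446 of the control level. Sftpd measured 439, 602, 546 and 565 CPM in the controls and 697, 663, 642, 675 and 647 CPM after bleomycin. Every treated lung was above every control, by 0.30 ± 0.09 on the log2 scale (SE, edgeR adjusted p = 0.0152). In the RefSeq gene order these collectin genes are near neighbours with Mbl1, a mannose-binding lectin gene, between them.

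The transcripts of both hydrophobic surfactant proteins fell. Sftpc measured 10352, 12193, 12284 and 12479 CPM in controls and 6933, 7087, 6794, 6371 and 6004 CPM after bleomycin. No treated lung reached the control range, and the log2 fold change was -0.83 ± 0.13 (SE, edgeR adjusted p = 9.05e-05). Sftpb measured 3038, 3880, 3773 and 3616 CPM in controls and 2352, 2531, 2568, 2587 and 2627 CPM after bleomycin. Its fall was smaller, at -0.50 ± 0.10 (SE, edgeR adjusted p = 0.00108), again without overlap. Napsa, for the protease that matures both, measured 275 to 369 CPM in controls and 297 to 321 CPM after bleomycin, with a log2 fold change of -0.10 ± 0.09 (SE, edgeR adjusted p = 0.386).

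The lamellar body and membrane genes did not move alike. Lamp3 measured 439, 492, 524 and 477 CPM in controls and 378, 392, 313, 295 and 313 CPM after bleomycin, a log2 fold change of -0.51 ± 0.11 (SE, edgeR adjusted p = 0.00138). Slc34a2 measured 1873, 2009, 2022 and 1810 CPM in controls and 1290, 1345, 1120, 1062 and 1048 CPM after bleomycin, a log2 fold change of -0.72 ± 0.11 (SE, edgeR adjusted p = 9.65e-05). Neither gene had overlapping groups. Abca3, the lamellar body lipid transporter, gave -0.21 ± 0.11 (SE) with overlapping ranges of 463 to 658 and 421 to 531 CPM. Lpcat1 gave -0.14 ± 0.10 (SE) with ranges of 333 to 463 and 317 to 406 CPM. Nkx2-1 fell by the smallest step, -0.32 ± 0.11 (SE, edgeR adjusted p = 0.0224), from 227 to 263 CPM in controls to 180 to 225 CPM after bleomycin. That call was lost in 6 of 22 alternative analyses, while those of Sftpa1, Sftpb, Sftpc, Lamp3 and Slc34a2 held in all 22 and that of Sftpd in 21.

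In human, LAMP3 is also a marker of mature dendritic cells, and whether mouse dendritic cells express it was not tested here. Most other markers of mature dendritic cells went the other way in WT lungs. Of 10 such genes, 7 rose and 2 fell in WT bleomycin lungs, against 25% and 23.9% of all genes. Their summed level was 268 to 324 TPM in controls and 369 to 472 TPM after bleomycin, and none was at 0. The dendritic cell actin bundler Fscn1 rose by 2.42 ± 0.21 on the log2 scale (SE), and the chemokine receptor Ccr7 changed by -0.54 ± 0.13. Their part in the Lamp3 value was not tested.

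**Figure D2:**
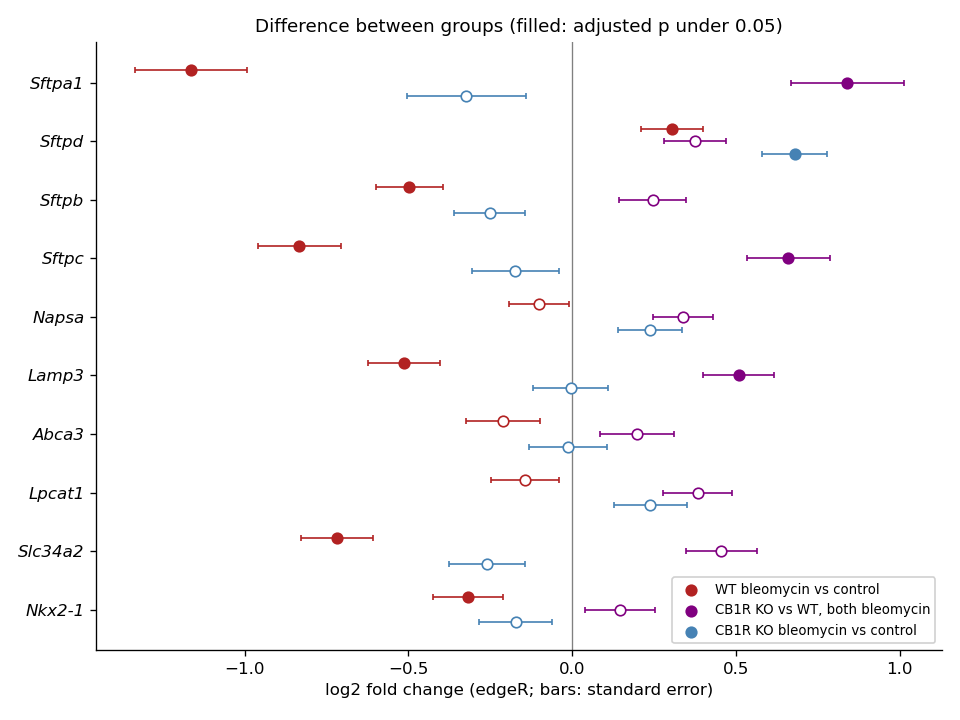
Log2 fold change (horizontal axis, with its standard error) of each gene in the 3 comparisons, from edgeR; filled points have an adjusted p under 0.05. In WT bleomycin against control 6 filled points lie left of 0 and Sftpd lies right of it, and all 10 points of CB1R KO against WT lie right of 0, with 3 of them filled.

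The second comparison set CB1R KO beside WT lungs, both after bleomycin. All 10 were higher in CB1R KO than in WT lungs by point estimate, and Sftpa1, Sftpc and Lamp3 passed the test. Across all genes 0.359% were called higher. A further 5 of the 10, making 8, had an unadjusted p under 0.05 in the higher direction, against 7.95% of all genes. The median log2 fold change of the 10 was 0.38, against 0.00 over all genes. For 6 of the 10 the groups did not overlap, compared with 2.5% of all genes higher without overlap.

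In CB1R KO replicates 8, 9, 10 and 11, Sftpa1 measured 2733, 2907, 1446 and 1878 CPM, all above the WT bleomycin maximum of 1372 CPM. Its log2 fold change was 0.84 ± 0.17 (SE, edgeR adjusted p = 0.0371), a level 1.79 times that of WT. Sftpc measured 10083, 11737, 7528 and 12615 CPM, against a WT maximum of 7087 CPM. The log2 fold change of Sftpc was 0.66 ± 0.13 (SE, edgeR adjusted p = 0.0289). Lamp3 measured 510, 577, 406 and 434 CPM, against a WT maximum of 392 CPM, with a log2 fold change of 0.51 ± 0.11 (SE, edgeR adjusted p = 0.0416). Replicate 10 was the closest to WT for all 3 genes.

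These 3 calls sat close to the threshold. With edgeR none was left when CB1R KO replicate 8, 9 or 11, or WT replicate 5, 4-B2 or 7, was left out, 1 was left without WT replicate 2, and 8 were called without CB1R KO replicate 10. All CB1R KO libraries have lower-case labels, as do 3 of the 5 WT libraries, and none of the 10 passed with label style as a term in the fit or with lower-case labels only. DESeq2 called 7 of the 10, adding Slc34a2, Sftpd, Lpcat1 and Napsa, where it called 1.73% of all genes higher. The direction did not depend on these choices: all 10 estimates were above 0 in each of the 22 alternatives, and 7 to 10 of the 10 had an unadjusted p under 0.05 in each.

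The remaining genes gave log2 fold changes from 0.15 to 0.46 that did not pass the edgeR test. Slc34a2 was at 0.46 ± 0.11 (SE, edgeR adjusted p = 0.0638), with 1611, 1958, 1286 and 1582 CPM in the CB1R KO lungs, where replicate 10 lay within the WT range. Sftpd was at 0.38 ± 0.09 (SE, edgeR adjusted p = 0.0683), with 865, 928, 716 and 938 CPM, all above the WT maximum of 697 CPM. Lpcat1 gave 0.38 ± 0.10 (SE) and Napsa 0.34 ± 0.09 (SE), also without overlap. Sftpb gave 0.25 ± 0.10, Abca3 0.20 ± 0.11 and Nkx2-1 0.15 ± 0.11 (SE), and these groups overlapped.

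The CB1R KO libraries differed among themselves more than the WT bleomycin libraries did. Replicates 8 and 9 lay above the WT bleomycin range for 10 of 10 genes and replicate 11 for 8. Replicate 10 was the lowest of the 4 for 10 of 10 genes, within the WT range for 3 and above it for 6. For Nkx2-1 it lay below every WT lung, at 165 CPM. Sftpc had an SD of 4958 TPM among CB1R KO and 1463 TPM among WT bleomycin lungs. The collagen gene Col1a1 was also uneven among the CB1R KO lungs, at 813, 815, 1864 and 1583 CPM in replicates 8, 9, 10 and 11.

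**Figure D3:**
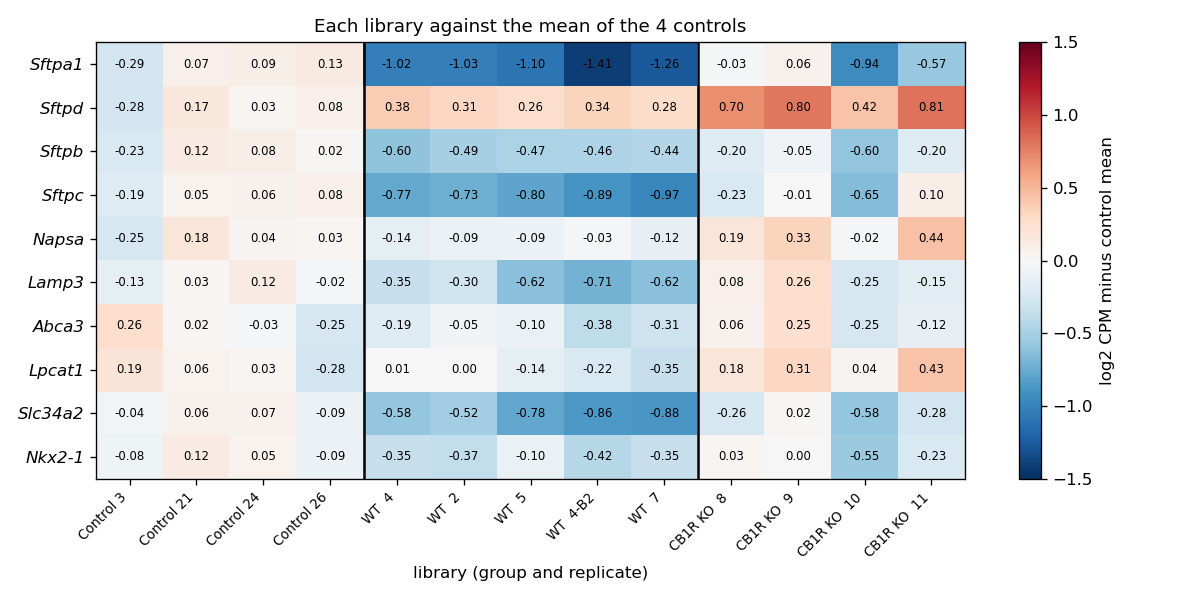
Log2 CPM of each gene (rows) in each library (columns) minus the mean of the 4 controls, with the value printed in each cell; red is higher and blue lower than control. CB1R KO replicate 10 is the bluest or palest of its group in all rows, and the Sftpd row is red in all 9 bleomycin libraries.

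The third comparison set bleomycin-treated CB1R KO lungs beside control. It shares the control libraries with the first comparison and the CB1R KO libraries with the second. Only Sftpd passed the test, at 0.68 ± 0.10 on the log2 scale (SE, edgeR adjusted p = 0.000144), a level 1.60 times that of control, and it was above every control in all 4 CB1R KO libraries, as were 17.7% of all genes. It passed in each of 21 alternatives. Across all genes 19% were called higher and 16.3% lower, and none of the 10 was called lower. Before adjustment, Sftpb (-0.25 ± 0.11) and Slc34a2 (-0.26 ± 0.12) had p under 0.05 in the lower direction, and Napsa (0.24 ± 0.10) and Lpcat1 (0.24 ± 0.11) in the higher. Sftpa1 (-0.32 ± 0.18), Sftpc (-0.17 ± 0.13), Nkx2-1 (-0.17 ± 0.11), Abca3 (-0.01 ± 0.12) and Lamp3 (-0.00 ± 0.12) did not pass. With these errors a remaining difference in Sftpa1 cannot be told from none, and a p that misses the threshold does not show that the levels were equal.

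Ratios within a library do not depend on its total. Sftpc exceeded Sftpd by 36.8 to 42.8 times in TPM in controls, 16.9 to 19.4 times in WT bleomycin and 19.1 to 23.7 times in CB1R KO lungs. Both bleomycin groups lay far below the controls, and they overlapped each other. The Sftpa1 to Sftpd ratio behaved alike, at 3.85 to 4.28 in controls, 1.29 to 1.70 in WT bleomycin and 1.62 to 2.47 in CB1R KO lungs. Against the epithelial adhesion gene Epcam, Sftpc stood at 460 to 517 in controls, 183 to 272 in WT bleomycin and 309 to 410 in CB1R KO lungs, with no overlap between any of the groups. Against Nkx2-1, Sftpc stood at 164 to 200, 108 to 136 and 147 to 209 in the same order of groups. No test was run on these ratios.

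**Figure D4:**
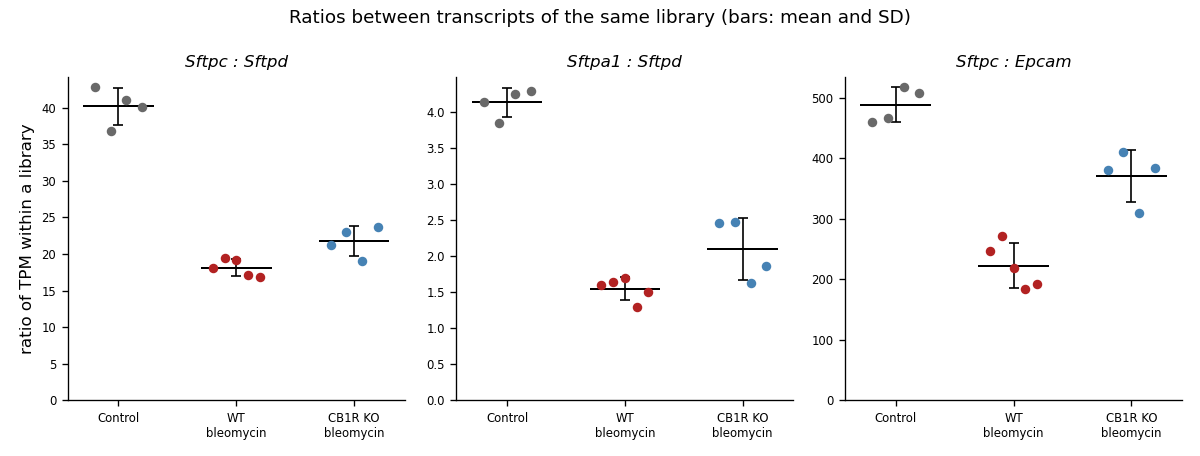
Ratio of TPM between genes of the same library (vertical axes from 0), with 1 point per library and bars for the mean and SD. Sftpc to Sftpd and Sftpa1 to Sftpd are lower in both bleomycin groups than in control, and for Sftpc to Epcam CB1R KO lungs lie between control and WT bleomycin lungs.

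Other genes of the type II cell followed in WT lungs. Of 17 further type II markers tested, 12 fell and 1 rose after bleomycin, against 23.9% and 25% of all genes. The median was -0.73 on the log2 scale. The largest fall was that of Bex2, from 23.4 to 30.8 CPM in controls to 2.29 to 3.73 CPM, a log2 fold change of -3.19 ± 0.17 (SE). Atp6v1c2, a subunit of the vacuolar proton pump, fell by 1.27 on the log2 scale. The lysozyme gene Lyz1 changed by -1.61 ± 0.19 (SE). The apical mucin gene Muc1 rose by 0.35 ± 0.13. In CB1R KO against WT lungs 16 of the 17 estimates were above 0, with a median of 0.41, and Lyz1 alone passed, at 0.97 ± 0.19 (SE, edgeR adjusted p = 0.0314). Its reads are hard to separate from those of its near-identical neighbour Lyz2, whose CB1R KO to WT difference was 0.42. DESeq2 called 9 of the 17, 8 were called without CB1R KO replicate 10, and none without replicate 11. In CB1R KO against control 8 of the 17 were called lower and 2 higher, with a median of -0.24. Over all genes 16.3% were called lower and 19% higher there. The 10 calls became 4 without CB1R KO replicate 10 and 6 without replicate 11.

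Genes that make surfactant lipid did not share a direction. In WT lungs 9 of 19 fell and 4 rose, against 23.9% and 25% of all genes, so the rises were near the share over all genes. Chpt1, the last enzyme of phosphatidylcholine synthesis, fell from 124 to 134 CPM in controls to 68.2 to 85.1 CPM, a log2 fold change of -0.73 ± 0.07 (SE). Acss2, which makes acetyl-CoA from acetate, gave -0.85 ± 0.13. Scd1, the stearoyl-CoA desaturase, rose by 1.21 ± 0.23, and Pgs1, of phosphatidylglycerol synthesis, by 0.51 ± 0.13. None of the 19 passed in CB1R KO against WT, where 16 estimates were above 0, with a median of 0.22. Adipocytes also express Scd1, and the summed level of 7 adipocyte markers ran from 68.2 to 263 TPM in controls, 24.2 to 149 TPM in WT bleomycin and 62.6 to 270 TPM in CB1R KO lungs, with none of the 7 at 0 throughout a group. Their part in the lipid gene values was not tested.

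The machinery of lamellar body assembly and release showed no common fall. In WT lungs 7 of 24 rose, 3 fell and 14 did not pass, against 25% and 23.9% of all genes, so the rises were near the share over all genes. The median log2 fold change was 0.06. The SP-B processing protease gene Ctsh rose from 166 to 234 CPM in controls to 515 to 637 CPM, a log2 fold change of 1.52 ± 0.15 (SE). Ap3s1, a subunit of the AP-3 sorting adaptor, rose by 0.82 ± 0.09. The fall was largest for Adgrf5, the receptor that restrains surfactant levels, at -0.99 ± 0.14, and Rab3d changed by -0.21 ± 0.06. Adgrf5 is also a gene of lung endothelium, and Ctsh of macrophages, whose general marker Cd68 rose by 1.37 ± 0.14. None of the 24 passed in CB1R KO against WT, where the median was 0.02.

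Transcription factors of the type II cell gave 6 falls and 4 rises among 14 in WT lungs, where 23.9% of all genes fell and 25% rose. Etv5 gave -0.68 ± 0.11 and Tfcp2l1 -0.71 ± 0.13, while Sox9 rose by 1.61 ± 0.30 and Stat3 by 0.51 ± 0.06 (SE). None passed in CB1R KO against WT. Etv5 was also counted among the further type II markers, and Srebf1 among the surfactant lipid genes.

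Markers of the transitional state between type II and type I cells rose together in WT lungs, 13 of 14, against 25% of all genes. Their median log2 fold change was 1.42. Their summed level was 1015 to 1183 TPM in controls, 2482 to 2957 TPM in WT bleomycin and 2419 to 2626 TPM in CB1R KO lungs. The tight junction gene Cldn4 went from 5.76 to 8.65 CPM in controls to 50.0 to 98.9 CPM in WT bleomycin and 31.8 to 46.6 CPM in CB1R KO lungs. All 14 estimates were below 0 in CB1R KO against WT, with a median of -0.21, and Cldn4 was the only 1 to pass, at -0.90 ± 0.18 (SE, edgeR adjusted p = 0.0314), against 0.62% of all genes called lower, and the call was lost without CB1R KO replicate 11. In CB1R KO against control 13 of the 14 rose, against 19% of all genes, with a median of 1.24. The keratin gene Krt8 was among them, at 0.63 ± 0.10. These are values of whole lung, and the part of other cells in them was not tested.

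Markers of other lung cells were counted beside these genes. The counts stand beside 25% of all genes called higher and 23.9% lower in WT bleomycin lungs. Of 14 type I cell markers 4 rose and 5 fell, near those shares. Hopx was among the falls, at -0.84 ± 0.10 (SE), and Ager did not pass. Among the rises were Igfbp2, at 1.04 ± 0.10, and Pdpn, at 0.63 ± 0.07. Of 12 airway secretory markers 7 fell and 2 rose, and their summed level was 89051 to 102785 TPM in controls, 42769 to 63637 TPM in WT bleomycin and 40062 to 51366 TPM in CB1R KO lungs. Some of the surfactant genes are also transcribed in airway cells, and the part of these cells in the values was not tested. Of 11 general epithelial genes 5 rose and 2 fell. Epcam rose by 0.31 ± 0.09, and Cdh1, at 0.13 ± 0.07, did not pass. The 2 that fell were Elf5, at -0.50 ± 0.10, and Prss8, at -0.47 ± 0.09. Of 17 genes of surfactant uptake by macrophages 7 rose and 2 fell, of 8 fibroblast genes 4 rose and 1 fell, and of 7 immune cell genes tested 3 rose and 1 fell. No gene of these last groups passed between CB1R KO and WT. Of 9 surfactant-bound defence genes tested, 3 rose and 3 fell in WT lungs, and Sftpa1 and Lyz1 were higher in CB1R KO than in WT.

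**Figure D5:**
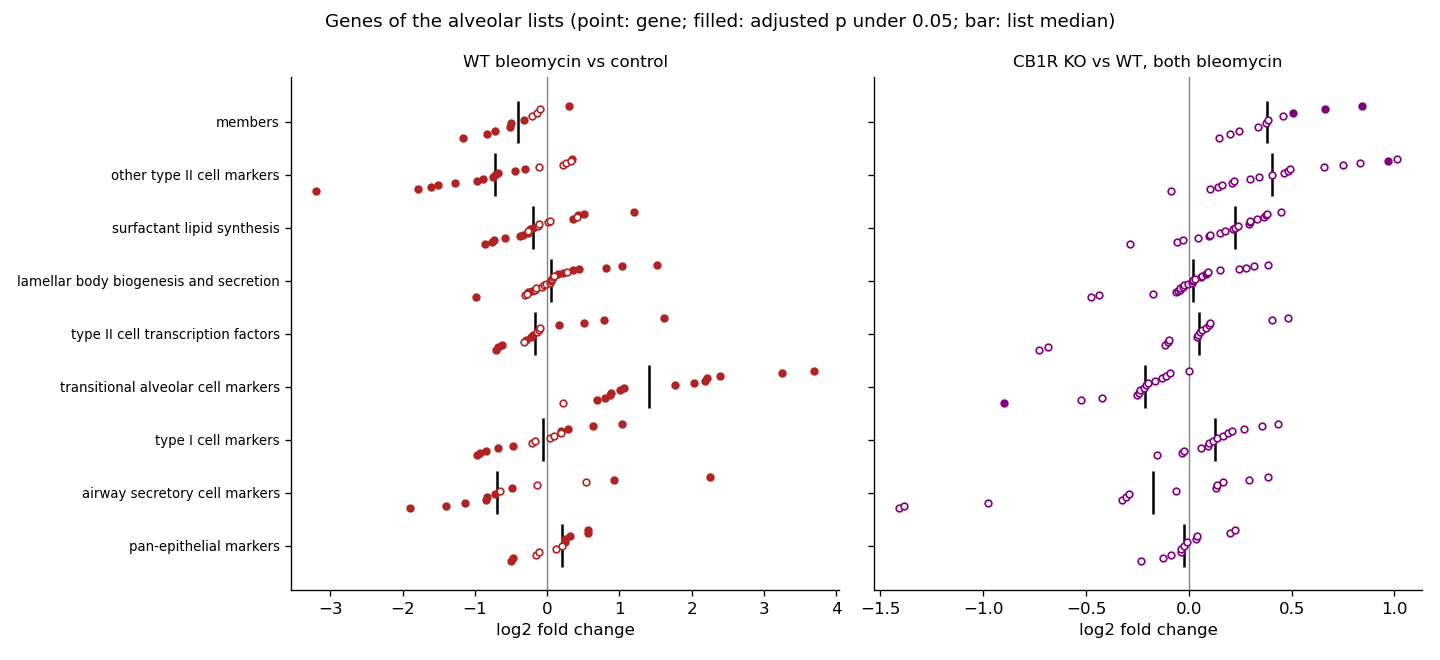
Log2 fold change (horizontal axis, different ranges in the panels) of each tested gene of the alveolar and epithelial lists, in WT bleomycin against control (left) and CB1R KO against WT (right); filled points have an adjusted p under 0.05 and vertical bars are list medians. The medians of the 10 surfactant genes and of the other type II markers lie below 0 on the left, at -0.41 and -0.73, and above 0 on the right, at 0.38 and 0.41.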

How the data were processed

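Lung RNA of 13 samples (lower right lobe) was prepared with oligo(dT) selection and NEBNext Ultra II, read as pairs on a HiSeq and quantified by the authors with kallisto on the Ensembl mouse reference (GRCm39 per the labels), summed over protein-coding transcripts. The deposited estimated counts are not normalized and 70.5% of them are not whole; the deposited TPM values are scaled for length and total. Kallisto shares reads among similar transcripts, so close paralogs are uncertain. The TPM table has 1 column that matches no sample, which was not used.

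Counts were rounded, filtered with filterByExpr (15315 of 20270 genes), scaled by TMM and fitted over 3 groups without covariates in edgeR 4.0.16 under R 4.3.3 (quasi-likelihood test), with Benjamini-Hochberg adjustment over all genes tested. p-values set a difference against the spread between libraries within groups, estimated over all 3 groups together. The control libraries therefore also enter the p-values of CB1R KO vs WT. CPM and log2 values (prior count 2) come from this fit, and TPM was used for levels between genes. Tested on simulated data, 191 of 200 changed genes were recovered for WT bleomycin vs control, with 9 false calls, and 193 with 14 for CB1R KO vs WT. Recovery at the log2 fold changes reported for the surfactant genes was not tested, since these counts are not split by size of change.

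The 10 genes and the lists were chosen with earlier results of these data known, and the adipocyte list after the values were seen. Named genes were the 10, Cnr1, up to 2 per list and direction with the lowest p in WT bleomycin vs control, list genes called between CB1R KO and WT, defining markers, and the genes most like or unlike the 10 over 13 libraries. Not all of the genes this rule selects are named in the text. Lyz2 and Mbl1 were added for context after their values were seen.

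Alternatives were no count filter or a minimum of 10 in each library, scaling by RLE or the upper quartile, library sizes without the 10 genes, DESeq2 1.42.0, limma 3.58.1 on log2 TPM with a pseudocount of 1 or 0.1, edgeR on the compared groups alone, label style (lower-case or capital) as a term, lower-case labels only, CB1R KO replicate 11 thinned, and each library left out. Leaving out Control replicate 3 and CB1R KO replicates 10 and 11 for the lists was chosen after seeing the data.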

Additional observations from a re-analysis of the deposited data

Results flagged for a closer look

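Of 30 sets of values (10 genes in 3 groups), 3 held a library set apart from the others of its group, where chance gives about 1 in 20. Sftpa1 in Control replicate 3 was at 2275.1 CPM, with the nearest other control at 2927 CPM. Sftpc in the same library was at 10351.5 CPM, with the nearest at 12193 CPM. The B cell gene Cd79a was at 129 CPM in that library and 53.8 to 70.4 CPM in the other controls, and its part in these values was not tested. Nkx2-1 in WT bleomycin replicate 5 was at 225.431 CPM, with the nearest other WT bleomycin library at 190 CPM. Without Control replicate 3 the same 6 genes were called lower and Sftpd higher in WT bleomycin lungs.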

How the results depend on the processing

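In WT bleomycin against control, the direction of all 10 genes held in 22 alternatives, and no gene was called higher with lower-case labels only (0 against 1). In CB1R KO against WT, 3 genes were called higher. DESeq2 on all libraries and on 2 groups called 7, limma called 1 with a pseudocount of 1 and 0 with 0.1, and edgeR on the compared groups alone, label style as a term and lower-case labels only each gave 0. Leaving out 1 library gave 0 to 8, and the median log2 fold change of the 10 genes was 0.33 to 0.45, highest without CB1R KO replicate 10. Over all lists 2 genes were called in that comparison, against 20 with DESeq2, 22 and 0 without CB1R KO replicates 10 and 11, and 5 without Control replicate 3. Over all genes the count of calls there was 150, 3 to 644 under the alternatives that left out no library of the compared groups, and 1 to 653 with 1 library left out. It was 1, 3 and 9 without CB1R KO replicates 9, 11 and 8, 653 without CB1R KO replicate 10, 24 to 62 without WT replicate 2, 5, 4-B2 or 7, and 230 without WT replicate 4.

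In CB1R KO against control, 1 gene was called higher and 0 lower. Both limma fits called 2 higher, label style as a term gave 1 lower, and leaving out 1 library gave 1 to 2 higher and 0 to 2 lower. The median, -0.09 with every library, was -0.17 to 0.0145 with 1 left out, highest without CB1R KO replicate 10. Values near 0 changed sign. Abca3 was 0.062 with either limma pseudocount and -0.103 to 0.0849 with 1 library left out, above 0 without CB1R KO replicate 10 or 11 or Control replicate 3. Lamp3 was 0.000815 with at least 10 counts in every library, 4.95e-05 with edgeR on the compared groups alone, 0.063 with either limma pseudocount, 0.00167 without a filter, and -0.0987 to 0.0746 with 1 library left out, above 0 without CB1R KO replicate 10 or 11 or Control replicate 21 or 24. The cause of these shifts was not tested.

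On estimated counts in place of TPM, the 10 genes held 2.26% of the library in controls, 1.39% in WT bleomycin and 2.04% in CB1R KO lungs, against 4.34, 2.65 and 4.09% of TPM, since counts are not scaled for length. No paired analysis was possible because the groups share no replicate numbers. The number of libraries, 4 or 5 a group, limits what can be told apart, and depth was high for all 10 genes.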

Other observations

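Outside the lists, genes whose log2 CPM followed the mean standardized level of the 10 genes closely over the 13 libraries were Dram1 (Pearson r = 0.95), Enpep (0.93), Cftr (0.92) and Ankrd46 (0.92). Dram1 encodes a lysosomal membrane protein, Enpep an aminopeptidase and Cftr the chloride channel of epithelia. The 13 points share the group differences, and with the group means removed the r of these 4 were 0.90, 0.83, 0.96 and 0.79. Cftr measured 7.61 to 12.4 CPM in controls, 3.81 to 8.15 CPM in WT bleomycin and 4.42 to 15.7 CPM in CB1R KO lungs, where replicate 10 was again the lowest. Its log2 fold changes were -0.65 ± 0.30 (SE) for WT bleomycin against control and 0.80 ± 0.29 for CB1R KO against WT, and neither passed the edgeR test (adjusted p = 0.0855 and 0.189).

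The most opposed genes were Rpl35 (r = -0.93), Rpl32 (-0.93), Rps7 (-0.93), Gprc5c (-0.92) and Rack1 (-0.92). Of these 5, 4 encode proteins of the cytosolic ribosome. Rpl32 rose by 0.27 ± 0.08 (SE) in WT bleomycin lungs and gave -0.28 ± 0.08 in CB1R KO against WT, which did not pass. These genes were picked for their likeness, so the r are descriptions without a test.

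Among pairs of the 10 genes, Sftpa1 and Slc34a2 were closest over the 13 libraries (r = 0.95) and Sftpd and Slc34a2 the least alike (r = -0.14).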
